A study of Mus musculus with 6 samples.

Results

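Mature osteoblast and osteocyte products are the secreted and membrane proteins that bone-forming cells make late in their life, when they lay down mineral or become buried in it. They were followed here through 10 genes, Bglap, Bglap2, Ostn, Ibsp, Dmp1, Phex, Mepe, Sost, Ifitm5 and Smpd3, taken by gene symbol from the platform annotation. Each of the 10 had 1 probe set of its own, out of 30702 genes with such a probe set. The series holds 6 Affymetrix arrays of BMSCs, bone marrow stromal cells from mice, which grow attached to plastic and can give rise to bone, cartilage or fat. The young group held 3 arrays from mice of 3 months and the aged group 3 arrays from mice of 18 months. Cells of both ages came from collagenase-digested femurs, were sorted as Sca-1+ CD29+ CD45- CD11b- and were expanded in culture past the first passage. Strain, sex and any pooling of animals are not given in the sources used here, and the labels state no osteogenic induction. Arrays of an age are labelled biological replicates without naming an animal for each. The p-values then reflect only how much these arrays vary, which may be technical.

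Bone-forming cells pass through stages. Early osteoblasts make type I collagen and alkaline phosphatase, mature osteoblasts add osteocalcin (Bglap, Bglap2), bone sialoprotein (Ibsp) and the osteoblast membrane protein Ifitm5, and osteocytes make Dmp1, Phex, Mepe and the Wnt inhibitor sclerostin (Sost). Ostn encodes osteocrin, a small secreted peptide of osteoblasts and muscle that competes with natriuretic peptides for their clearance receptor, and Smpd3 encodes the neutral sphingomyelinase that cartilage and bone need to mineralise.

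Of the 10 genes, most lay within the range of the negative controls at both ages, as did most measured genes. The values are deposited log2 expression values, and the 5222 negative control probe sets had a median of 4.79 and a 95th percentile of 7.61 on that scale. In 7 of the 10 genes the mean of both ages lay below 7.61, with Bglap closest to it, at 7.59 in young arrays. Ostn was above it in young arrays and Smpd3 in aged arrays, while Bglap2 exceeded it in young arrays by 0.0048, less than the SD between those arrays. Among all measured genes, 33.5% had a mean above 7.61 in at least 1 age. When each age was judged against its own negative controls, a setting chosen after the data were seen, Ostn and Smpd3 were the 2 genes above. No gene of the 10 reached 8.99, the level of the brightest antigenomic class, a set of G and C rich probes with no target in the mouse genome.

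With age, Ostn, Bglap and Bglap2 fell and Smpd3 rose, and the other 6 genes gave no call. For the test a gene needed a mean at or above 5.40, the median of all transcript clusters. This left 7 of the 10 genes, of which 3 did not pass. Ibsp, Dmp1 and Phex were too dim to be tested. The count of 4 calls stands beside 40.6% of 20186 genes called in either direction, 18.4% higher and 22.1% lower (limma, Benjamini-Hochberg adjusted p under 0.05). Against a log2 difference of 0.3 in place of 0, Ostn, Bglap2 and Smpd3 passed, beside 9.83% of the genes tested. The median difference of the 10 genes was -0.09, and that of all measured genes 0.01. In bulk RNA, fewer cells that make a product and less of its RNA per cell cannot be told apart. For 3 against 3 arrays the smallest two-sided p of an exact permutation test is 0.1, so the calls rest on limma's moderated model.

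**Figure D1:**
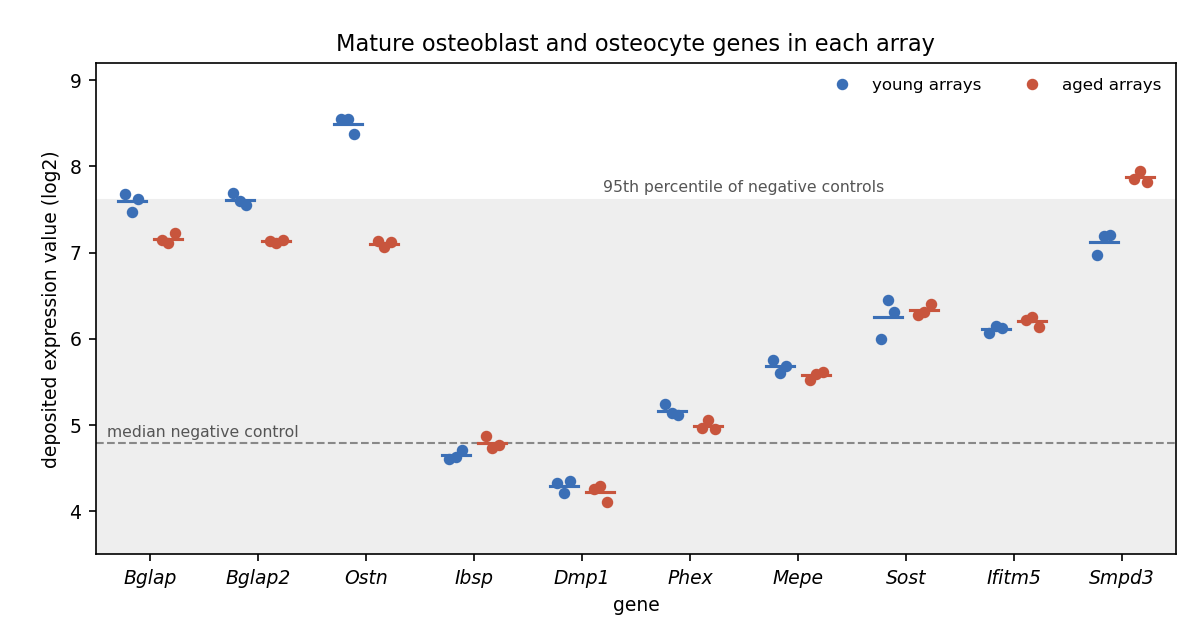
Deposited log2 expression value (vertical axis) of each of the 10 genes (horizontal axis) in the 3 young and 3 aged arrays, with a bar at each group mean. The grey area ends at the 95th percentile of the negative controls, 7.61, and the dashed line is their median, 4.79. The young arrays of Ostn and the aged arrays of Smpd3 stand clear of the grey area.

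The promoter table of RefSeq (GRCm38.p6) held 7 of the 10 genes, with 8 start sites between them. Ostn, Bglap2 and Smpd3 had no entry, so Bglap was the only called gene searched. In the 250 bases before each start, the letters ACCACA, the core that RUNX factors bind, and TATAAA, the TATA box, were searched on both strands. ACCACA was found in 3 of the 7 genes, Bglap, Dmp1 and Mepe, and in 14.1% of 32851 promoter windows of that length. In Dmp1 it lay at start site 2 and not at start site 1. TATAAA was found in Bglap, Ibsp and Mepe, and in 12.4% of windows. The percentages count single windows, while the genes are counted with a match at any start site, so the shares are not in like units. Bglap and Mepe are shown because they hold both motifs, and the means of both lay within the negative control range at both ages, Bglap with a call of lower and Mepe with no call. Capitals mark the matches, and TTTATA and TGTGGT are the motifs read on the other strand. The Bglap window is chr3:88384467-88384716 on the minus strand and the Mepe window chr5:104325079-104325328 on the plus strand.
Bglap: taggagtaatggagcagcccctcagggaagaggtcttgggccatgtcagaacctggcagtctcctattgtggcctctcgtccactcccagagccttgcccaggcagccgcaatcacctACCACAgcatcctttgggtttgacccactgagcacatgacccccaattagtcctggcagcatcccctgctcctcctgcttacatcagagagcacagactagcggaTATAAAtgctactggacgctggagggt
Mepe: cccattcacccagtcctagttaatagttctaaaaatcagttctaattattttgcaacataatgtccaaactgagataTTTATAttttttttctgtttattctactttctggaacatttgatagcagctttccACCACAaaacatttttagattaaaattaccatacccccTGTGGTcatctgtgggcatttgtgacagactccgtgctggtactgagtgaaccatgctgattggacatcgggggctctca
Counted from the start, ACCACA spans -132 to -127 in Bglap and TATAAA spans -27 to -22. In Mepe the 2 ACCACA matches span -118 to -113 and -80 to -75, the latter on the opposite strand, and TATAAA spans -173 to -168 on the opposite strand. A match describes these letters only.

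Ostn had the largest decrease of the 10. Its log2 value was 8.56, 8.55 and 8.38 in the young arrays and 7.13, 7.06 and 7.12 in the aged arrays. All 3 young arrays were above the negative control range, all 3 aged arrays were within it, and the groups did not overlap. The mean was 8.49 ± 0.10 in young and 7.10 ± 0.04 in aged arrays (SD, n = 3 each), a log2 difference of -1.39 with a 95% confidence interval from -1.52 to -1.26 (limma, adjusted p = 2.14e-07). No fold is given, because the aged level lies within the negative control range, and the log2 difference is one between readings and not a measured size of the decrease. Against the negative controls of the same age, the Ostn mean stood at percentile 97.1 in young and 92.4 in aged arrays.

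Smpd3 was the gene of the 10 that rose. Its values were 6.97, 7.20 and 7.21 in young arrays and 7.86, 7.95 and 7.81 in aged arrays. The young arrays lay within the negative control range and the aged arrays above it, without overlap. The mean rose from 7.13 ± 0.13 to 7.87 ± 0.07 (SD, n = 3 each), a log2 difference of 0.75 with a 95% confidence interval from 0.59 to 0.91 (limma, adjusted p = 3.94e-05). No fold is given here either, because the young level lies within the negative control range.

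The osteocalcin genes fell by less. Osteocalcin is the abundant calcium-binding protein of bone matrix, and Bglap and Bglap2 lie side by side with Bglap3 in the RefSeq gene order of chromosome 3. These copies are nearly identical in sequence, so each probe set may read more than 1 of them, and which copy a value belongs to is uncertain. Bglap read 7.69, 7.48 and 7.62 in young and 7.15, 7.11 and 7.23 in aged arrays. The means were 7.59 ± 0.11 and 7.16 ± 0.06 (SD, n = 3 each), and the difference was -0.43 (95% confidence interval -0.58 to -0.29; limma, adjusted p = 0.000591). Bglap2 read 7.69, 7.60 and 7.55 in young and 7.14, 7.11 and 7.15 in aged arrays, a difference of -0.48 (-0.59 to -0.37; limma, adjusted p = 6.63e-05). In neither gene did the ages overlap. Against the negative controls of the same age, however, both hardly moved. Bglap stood at percentile 93.9 in young and 92.8 in aged arrays, and Bglap2 at 93.9 and 92.5. Against a difference of 0.3 Bglap did not pass (limma, adjusted p = 0.278) and Bglap2 did (adjusted p = 0.0316). Pmf1, the next gene on the other side of Bglap and a component of the kinetochore, read 8.58 and 8.76 (limma, adjusted p = 0.0359), a call lost without the filter on dim genes (adjusted p = 0.0543), with eBayes without a trend, against a difference of 0.3, and without young replicate 2 or any 1 of the aged arrays.

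The negative controls themselves were lower in the aged arrays, with a median difference of -0.26, and their 95th percentile was 7.79 in young and 7.51 in aged arrays. To set the 4 called genes beside controls of like brightness, the 300 negative controls with a mean between 7 and 8 were taken. Their median difference was -0.22. Of these, 85 (28.3%) fell by at least as much as Bglap and 75 (25.0%) by at least as much as Bglap2. The decrease of Ostn was matched or exceeded by 7 of the 300 (2.33%), and the increase of Smpd3 by 1 (0.33%). The decreases of the osteocalcin genes thus lay well inside the range of these negative controls. That of Ostn lay beyond their 5th percentile of -0.98, and the increase of Smpd3 beyond their 95th percentile of 0.31. The antigenomic classes moved the other way, by 0.01 to 0.29. The 99th percentile of all negative controls, 10.04, was above the brightest antigenomic class, 8.99. Whether the negative controls read background alone was not tested, so their spread may hold signal.

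**Figure D2:**
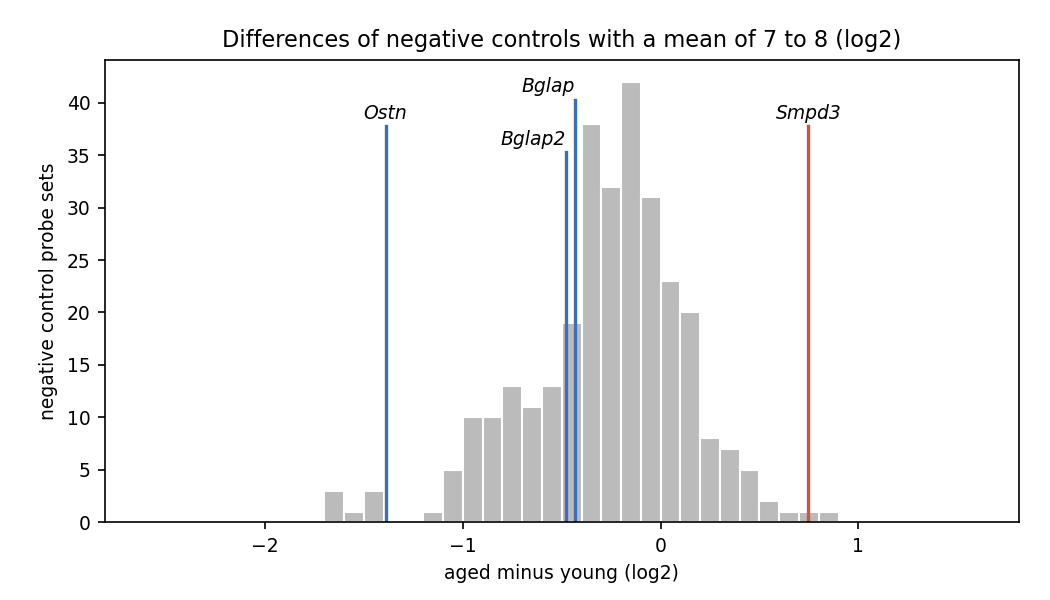
Histogram of the aged minus young difference (log2, horizontal axis) of the 300 negative control probe sets with a mean of 7 to 8, with their number on the vertical axis and vertical lines at the differences of Ostn, Bglap2, Bglap and Smpd3. Bglap and Bglap2, at -0.43 and -0.48, fall in the body of the histogram, and Ostn at -1.39 and Smpd3 at 0.75 in its tails.

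**Figure D3:**
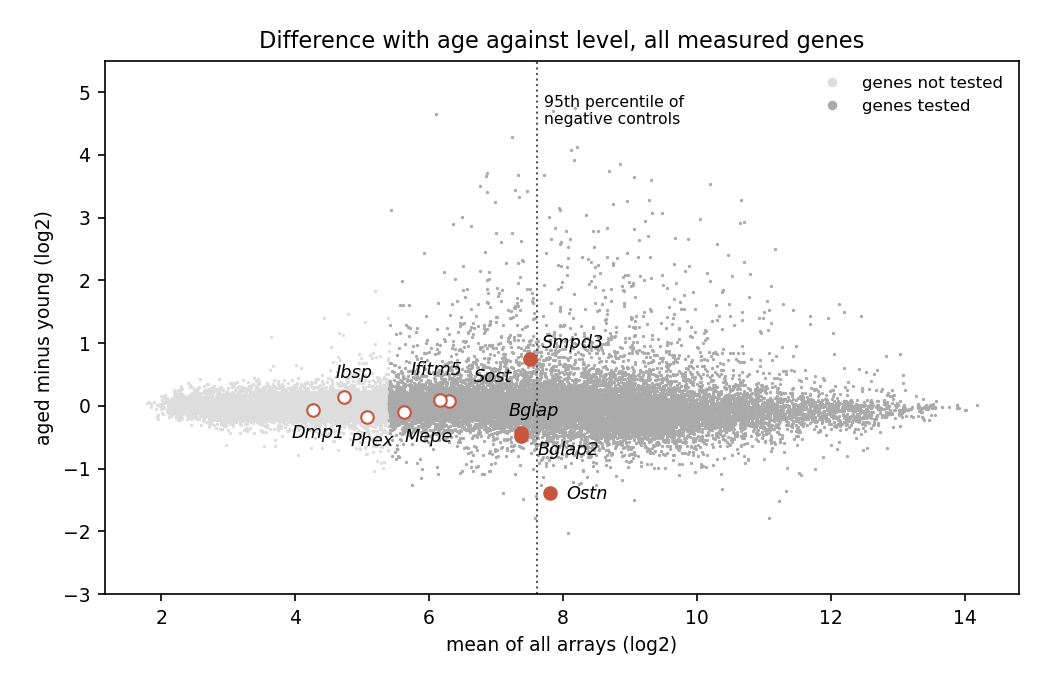
Aged minus young difference (log2, vertical axis) against the mean of all 6 arrays (log2, horizontal axis) for all measured genes, grey where tested and light grey where too dim for the test. Circles are the 10 genes, filled where they passed the test, and the dotted line marks the negative control 95th percentile of 7.61.

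The acidic phosphoproteins of mineralised matrix were dim in every array. Ibsp, Dmp1 and Mepe bind calcium and integrins, and in the RefSeq gene order of chromosome 5 they follow one another between Dspp and Spp1. Ibsp, an early marker of mineralising osteoblasts, read 4.61, 4.63 and 4.72 in young and 4.88, 4.74 and 4.77 in aged arrays. Those values sit at the median of the negative controls, and although the ages did not overlap the difference was 0.14 (95% confidence interval -0.02 to 0.30 with every gene fitted). Dmp1, which nucleates mineral and marks osteocytes, read 4.33, 4.21 and 4.36 in young and 4.26, 4.29 and 4.11 in aged arrays, below that median in all 6. Its ages overlapped, with a difference of -0.07 (-0.26 to 0.11). Mepe, an osteocyte inhibitor of mineralisation, read 5.75, 5.60 and 5.69 in young and 5.53, 5.59 and 5.61 in aged arrays. It did not pass (difference -0.11, -0.25 to 0.04; limma, adjusted p = 0.23). Dspp, the neighbour that makes dentin proteins, was at 4.19 and 4.26 in young and aged arrays, and Spp1 was not analysed here.

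Phex and Sost, through which osteocytes act on phosphate and on Wnt signalling, were within the negative control range at both ages. Phex, the endopeptidase lost in X-linked hypophosphataemia, read 5.25, 5.14 and 5.11 in young and 4.96, 5.06 and 4.95 in aged arrays. The groups did not overlap, and the difference was -0.18 (-0.33 to -0.03), which did not pass when every gene was fitted (limma, adjusted p = 0.0915), a setting in which 26.5% of 30702 genes were called. Sost read 6.00, 6.45 and 6.31 in young and 6.28, 6.32 and 6.40 in aged arrays. Young replicate 1 was the lowest and young replicate 2 the highest of the 6, so the aged values lay between them. The difference of 0.08 (-0.17 to 0.32) did not pass (limma, adjusted p = 0.614), and without young replicate 1 it was -0.048. Non-overlap was seen in 6 of the 10 genes, beside 39.1% of all measured genes.

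Ifitm5, a membrane protein found mainly in osteoblasts and mutated in a form of brittle bone disease, read 6.07, 6.15 and 6.12 in young and 6.22, 6.26 and 6.14 in aged arrays. The ages overlapped and the gene did not pass (difference 0.09, -0.04 to 0.22; limma, adjusted p = 0.235). It lies beside the interferon-inducible family members Ifitm1, Ifitm2 and Ifitm3 on chromosome 7. Ifitm3, a restriction factor against viruses, rose from 11.46 ± 0.09 to 12.62 ± 0.01 (SD, n = 3 each; limma, adjusted p = 1.3e-07) and Ifitm2 from 11.03 ± 0.19 to 11.82 ± 0.04 (adjusted p = 6.58e-05). Ifitm1 was at 5.42 and 5.65, within the negative control range, and did not pass. Because Ifitm2 and Ifitm3 are much alike in sequence, how the signal divides between them is uncertain.

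Genes listed for the osteoblast lineage and its matrix that passed were mostly higher in aged cells. That list is not limited to early steps, because it holds Omd, a gene of mineralised matrix. Of 15 osteoblast lineage and early matrix genes listed, 12 were measured and tested, of which 8 rose, beside 18.4% of all genes tested, 1 fell, beside 22.1%, and 3 did not pass. At least 1 age was above the negative control range in 8 of the 12 genes, against 3 of the 10 mature products, and whether the lists differ was not tested. Their median difference was 0.41, beside 0.01 for all genes tested. Against a difference of 0.3, 6 rose and none fell, beside 9.83% of the genes tested called in either direction. With each array left out, 7 to 8 rose. Pth1r, called higher at 7.06 and 7.21, lay within the negative control range. It lost its call against a difference of 0.3 and without young replicate 2 or any 1 of the aged arrays. Alpl, the alkaline phosphatase that frees phosphate for mineral, read 7.33, 7.42 and 7.38 in young and 8.67, 8.63 and 8.70 in aged arrays, a log2 difference of 1.29 (limma, adjusted p = 5.43e-08). Col1a1, the main collagen chain of bone, rose by 0.79 (adjusted p = 6.29e-08), Cdh11, the osteoblast cadherin, by 0.94 (adjusted p = 2.21e-08), and Omd, a proteoglycan of mineralised matrix, from 5.81 to 10.56 (adjusted p = 4.08e-08). The young levels of Alpl and Omd lay within the negative control range, so their differences are between readings and not measured sizes. Sp7, the transcription factor osteoblasts need to mature, was at 6.16 and 6.29, within the negative control range, and did not pass (adjusted p = 0.0901), though it did after quantile normalization (adjusted p = 0.0363) and with eBayes without a trend (adjusted p = 0.0356). Atf4, a transcription factor that acts on the osteocalcin genes, was the gene that fell, by 0.22, and without young replicate 3 Msx2 passed as well, at -0.18. Runx2 and Spp1 were not analysed here.

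Among 12 other genes associated with osteocytes, 11 were tested, with a median difference of 0.19. Of these, 8 rose, beside 18.4% of all genes tested, none fell, beside 22.1%, and 3 did not pass. At least 1 age was above the negative control range in 6 of the 12, beside 33.5% of all measured genes. Gja1 and Dkk1, both called higher, lay within that range at both ages. The count of 8 was 5 without young replicate 2, without aged replicate 1 and without aged replicate 3. It was 2 against a difference of 0.3, beside 9.83% of the genes tested called in either direction. Mmp14, a membrane protease, rose by 0.59 (limma, adjusted p = 9.65e-07), and Pdpn, an early marker of osteocyte processes, from 9.15 ± 0.05 to 9.64 ± 0.01 (SD, n = 3 each; adjusted p = 5.51e-06). Fam20c, the kinase that phosphorylates Dmp1 and its relatives, rose by 0.24, and Cd44, a hyaluronan receptor, by 0.19. The phosphate hormone gene Fgf23, which Phex and Dmp1 restrain, was at 5.38 and 5.56, within the negative control range (adjusted p = 0.134). With the replicate number as a block Fgf23 passed upward (limma, adjusted p = 0.0493). None of Pdpn, Mmp14, Fam20c and Cd44 is specific to bone.

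The genes whose products act with the 10 moved both ways. Of 23 listed, 20 were measured and 19 tested, with a median difference of 0.04. Of the 19, 8 rose, beside 18.4% of all genes tested, 7 fell, beside 22.1%, and 4 did not pass. Against a difference of 0.3, 3 rose and 2 fell, beside 9.83% of the genes tested called in either direction. Those were Npr3, Vdr and Vkorc1, higher, and Slc20a1 and Fkbp11, lower. Every other called partner lost its call in that test. Npr3, the clearance receptor that osteocrin binds, read 7.32, 7.29 and 7.23 in young and 8.42, 8.47 and 8.47 in aged arrays. It rose by 1.18 (limma, adjusted p = 1.06e-07) where Ostn fell. The young level of Npr3 lay within the negative control range, so 1.18 is a difference between readings and not a measured size. Npr2, the receptor for C-type natriuretic peptide, read 9.29, 9.19 and 9.09 in young and 8.86 in each aged array, and fell by 0.33 (adjusted p = 0.000734). Npr1 was called higher, from 5.88 to 6.17 (limma, adjusted p = 0.00728), though within the negative control range at both ages. Nppc, which encodes C-type natriuretic peptide, was at 6.09 and 6.08 and did not pass.

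On the osteocalcin side, Vdr, the vitamin D receptor, which acts on the osteocalcin genes, read 7.93, 7.86 and 7.86 in young and 10.02, 9.89 and 9.97 in aged arrays. It read 4.23-fold higher in aged cells (limma, adjusted p = 4.54e-09). The young mean, 7.88, was only just above the negative control range, at percentile 95.4 of the young negative controls, so the fold is uncertain. Vkorc1, which recycles the vitamin K that osteocalcin carboxylation uses, rose from 9.59 ± 0.11 to 10.59 ± 0.03 (SD, n = 3 each; adjusted p = 1.17e-06). Ggcx, the carboxylase itself, rose 1.22-fold (adjusted p = 0.00156). Gprc6a, proposed as an osteocalcin receptor, was at 4.68 and 4.73 and too dim to be tested.

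Of the other partners, the Wnt co-receptors that sclerostin blocks, Lrp5 and Lrp6, fell by 0.25 and 0.21 (limma, adjusted p = 0.00421 and 0.00267). Lrp4, which holds sclerostin at the cell, was at 7.22 and 7.31, within the negative control range, and did not pass. Without young replicate 1 Lrp4 passed upward, at 0.13 (limma, adjusted p = 0.0403). Slc20a1, a phosphate importer, fell from 10.08 ± 0.08 to 9.37 ± 0.02 (SD, n = 3 each; adjusted p = 2.16e-06). Fkbp11, which binds Ifitm5, fell by 0.59 (adjusted p = 1.7e-06), and the tetraspanin Cd81 of that complex rose by 0.31 (adjusted p = 0.000168). The integrin chain Itgav, which recognises bone sialoprotein and its relatives, fell by 0.39 (adjusted p = 1.92e-05), while its partner Itgb3 was at 6.68 and 6.71 and did not pass. Phospho1, Enpp1 and Ankh, which set phosphate and pyrophosphate at the mineral front, have no probe set of their own here and were not analysed here.

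**Figure D4:**
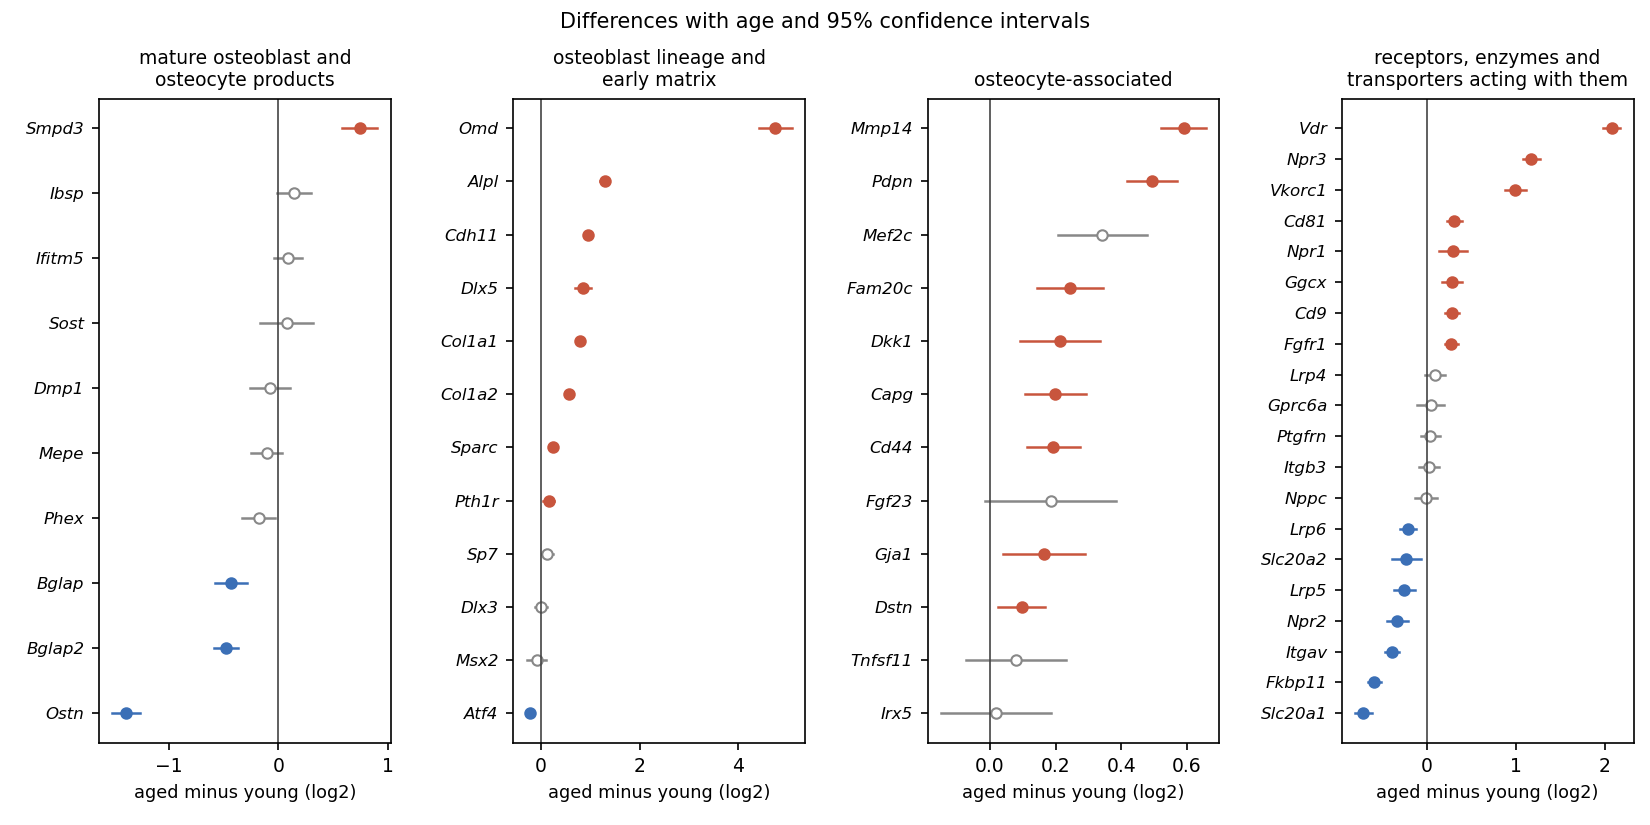
Aged minus young difference (log2, horizontal axes, each panel on its own scale) with 95% confidence intervals for the 10 genes and 3 lists of related genes, sorted by size. Filled points passed the test (red higher, blue lower) and open points did not pass or were too dim to be tested. Ostn is lowest and Smpd3 highest in the left panel, and Vdr and Npr3 lead the right panel.

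Markers of other cells were mostly dim. Of the sort markers, CD29 (Itgb1) was bright at 11.86 and 11.76, CD45 (Ptprc) and CD11b (Itgam) were at 3.65 and 3.62 and at 5.26 and 5.24, and Sca-1 was not analysed here. No marker of leukocytes (8 measured), adipocytes (5) or endothelium (6) was above the negative control range at either age. The mean of the leukocyte list lay between 5.41 and 5.49 over young arrays and between 5.46 and 5.48 over aged arrays. Skeletal muscle, which also makes osteocrin, had 1 of 8 markers above that range, Acta1, and its list mean was 6.43 to 6.62 in young and 6.57 to 6.64 in aged arrays, with no marker called. Without young replicate 3, Acta1, Mb and Myog passed upward, as did the osteoclast marker Acp5, and the macrophage marker Cd68 passed downward. Acta1 also passed after median centring. Osteoclast markers had 1 of 8 above it, Ctsk, which rose from 9.07 to 10.04 (limma, adjusted p = 2.67e-06), and Calcr, Dcstamp and Atp6v0d2 were too dim to be tested. The osteoclast list mean was 6.18 to 6.25 in young and 6.38 to 6.41 in aged arrays. Among endothelial markers Kdr rose from 5.93 to 6.62 and Tek fell from 5.57 to 5.36. The call of Tek was lost after quantile normalization, after median centring and without young replicate 1 or any 1 of the aged arrays. It was also lost without the filter on dim genes (limma, adjusted p = 0.0545) and against a difference of 0.3. Of 7 cartilage markers tested 4 rose, beside 18.4% of all genes tested, and none fell, beside 22.1%. Col2a1 rose from 7.57 to 7.99 (limma, adjusted p = 0.00122), and the aggrecan gene Acan was at 6.07 and 6.16. The cartilage list mean was 6.43 to 6.59 in young and 6.67 to 6.69 in aged arrays, with 2 of the 8 markers, Col2a1 and Col11a2, above the negative control range. Its count of 4 was 1 without aged replicate 1 or without aged replicate 2, 2 without aged replicate 3 and 0 against a difference of 0.3. Whether cells of another kind took part in the changes of Ostn and Smpd3 was not tested.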

How the data were processed

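Expression was measured on 6 arrays, 3 young and 3 aged, grouped and numbered by the sample titles. The deposited values are log2 expression per probe set, made by the authors with MAS5 (version not stated), per the submitters' processing notes; background correction, scaling and genome build are not given in the sources used here. Values were used as deposited. The table carries 72688 probe sets, of which 65956 are transcript clusters; 31258 of these had 1 gene after symbols were updated through the RefSeq table of GRCm38.p6, 1492 had several and 33206 had none listed. Per gene the probe set with the highest mean was kept. Genes with a mean at or above 5.40 were tested with limma 3.58.1 in R 4.3.3 (lmFit, eBayes with intensity trend) and Benjamini-Hochberg adjustment over all 20186 genes; the script was tested on simulated data. Intervals of untested genes come from the fit without a filter. Differences are aged minus young, and folds are given only where both ages exceed 7.61. The array medians lay between 5.39 and 5.45, and the number of arrays limits the precision.

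The members, the related gene lists, the alternatives and the rule for named genes were chosen with earlier results of these data known. That rule takes every member, up to 4 genes with the smallest p per list and up to 4 that act with a member. The chromosome neighbours Pmf1, Dspp, Ifitm1, Ifitm2 and Ifitm3, and any list gene named beyond the rule, were chosen after their values were seen. Alternatives were quantile normalization, median centring, 2 other filters, the mean of a gene's probe sets, eBayes without trend, the replicate number as a block, a test against 0.3, each array left out, and other background levels. Figures were drawn with matplotlib 3.10.9.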

Additional observations from a re-analysis of the deposited data

How the results depend on the processing

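Ostn, Bglap2 and Smpd3 kept their direction and their call in every alternative in which they were tested (14, 13 and 13), with differences from -1.45 to -1.36, -0.51 to -0.44 and 0.67 to 0.79. Bglap kept its direction in 13 alternatives (-0.49 to -0.39) and its call in 12, with the exception of the test against a log2 difference of 0.3 (limma, adjusted p = 0.278). Sost reversed without young replicate 1 (-0.048; 0.18 without young replicate 2, the other end of the range) and was called in no setting. With genes tested only above the negative control 95th percentile, 1 of the 10 genes was lower (Ostn) and 0 higher, because the other 9 were not tested, and 2361 genes were higher. Against a difference of 0.3, 1169 genes were higher and 816 lower. Of the 10 genes 3 exceeded the negative controls at the 95th percentile and 0 at the 99th percentile (10.04) or at the brightest antigenomic class; with each array left out the count was 2 to 4. Leaving out 1 array gave 3006 to 4327 genes higher and 3711 to 4963 lower, and 1 higher and 3 lower among the 10. With the replicate block, 3523 genes were higher and 4204 lower, with 1 and 3 among the 10. Deviations of same-numbered arrays correlated between -0.05 and 0.04, and those of other-numbered arrays between -0.07 and 0.04. Such deviations, taken from means of 3 arrays, cannot show whether same-numbered arrays were handled together. In 7 of the 10 genes the means of both ages lay below the negative control 95th percentile, which limits what these arrays can show of them. Among all measured genes, 33.5% exceeded it in at least 1 age.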
